A study of Mus musculus with 6 samples.

Results

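The 9 genes of the hedgehog pathway followed here, measured after Dicer loss in mouse embryonic stem cells, were Hhip, Ptch1, Smo, Gli1, Gli2, Gli3, Sufu, Boc and Gas1. They are 9 of the 19938 genes that the arrays measured through a probe set carrying a single gene symbol. Each had exactly 1 such probe set, 9 of the 35556 on the array. Hhip was picked by its large rise between the groups compared here, so its values are given as a description with no test. The other 8 belong to the same pathway and were taken as its receptors, transducers and transcription factors. Their choice was made with earlier results of these data known.

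The cells carry Dicer Fx/Fx, a conditional allele of the ribonuclease that cuts microRNA precursors into mature microRNAs, and both groups share it. The untreated group, 3 arrays, is described in the labels as conditional cells without deletion. The tamoxifen group, 3 arrays, received tamoxifen for 3 days and was collected 2 days later, on day 5; its labels state that Dicer is deleted. The labels name neither the recombinase nor a collection day for the untreated cells, and they leave unsaid whether each replicate was its own culture. The p-values therefore cover only array-to-array spread within a group, part or all of which may be technical. Wild-type E14 cells given tamoxifen are mentioned in the protocol and were not analysed here, so tamoxifen exposure and Dicer deletion cannot be told apart. The question put to the pathway was which of its genes differ once Dicer has been removed.

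Hedgehog ligands bind the receptor Ptch1 and so relieve its inhibition of Smo, a membrane protein that signals from the primary cilium. Active Smo frees the GLI transcription factors from Sufu, their inhibitor. Gli1 and Gli2 act mainly as activators and Gli3 mainly as a repressor. Ptch1, Gli1 and Hhip are themselves induced by GLI proteins in many tissues. Ptch1 and Hhip bind the ligand and hold the signal back, whereas Boc and Gas1 are co-receptors that help cells to receive it.

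Values are log2 signals after the robust multi-array average (RMA). The 6 arrays had median signals of 7.19 to 7.26 over all probe sets. Probe sets differ in how brightly they report, so levels were compared between arrays for a given gene and never between genes. Dicer1, the targeted gene, had 11.43, 11.36 and 11.48 in the untreated arrays and 9.53, 9.48 and 9.69 in the tamoxifen arrays, which left 27.7% of the untreated signal (log2 change -1.85 ± 0.07 SE). Of 10 embryonic stem cell markers, all were measured and their mean log2 signal was 12.51 to 12.61 in untreated and 12.39 to 12.50 in tamoxifen arrays, so that every tamoxifen array lay below every untreated array. In bulk RNA, fewer cells of a type and less RNA per cell cannot be told apart.

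Across the pathway core, Hhip stood 3.51-fold higher after tamoxifen, the receptor Ptch1 and the factor Gli1 rose 1.25-fold and 1.29-fold, and Gli2 and Gli3 had higher means that missed the threshold here and passed it with the replicate numbers as a block and under some other settings. The 95% intervals of Smo, Sufu, Boc and Gas1 included 0. Calls were made in limma over all 19938 genes, where a Benjamini-Hochberg adjusted p had to be under 0.05. Of the 8 genes apart from Hhip, 2 rose and 0 fell; over all genes 7.78% were called, 3.79% as higher and 3.99% as lower. The median change of these 8 was 0.18 on the log2 scale, beside 0.01 over all genes, and 7 of the 8 had a change above 0. The tamoxifen values lay wholly above the untreated ones for 3 of the 8 (Ptch1, Gli1 and Gli2), as they did for 14.5% of all genes; 14.8% of all genes lay wholly below. With 3 against 3 arrays, an exact two-sided permutation test of a single gene cannot go below p = 0.1.

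**Figure D1:**
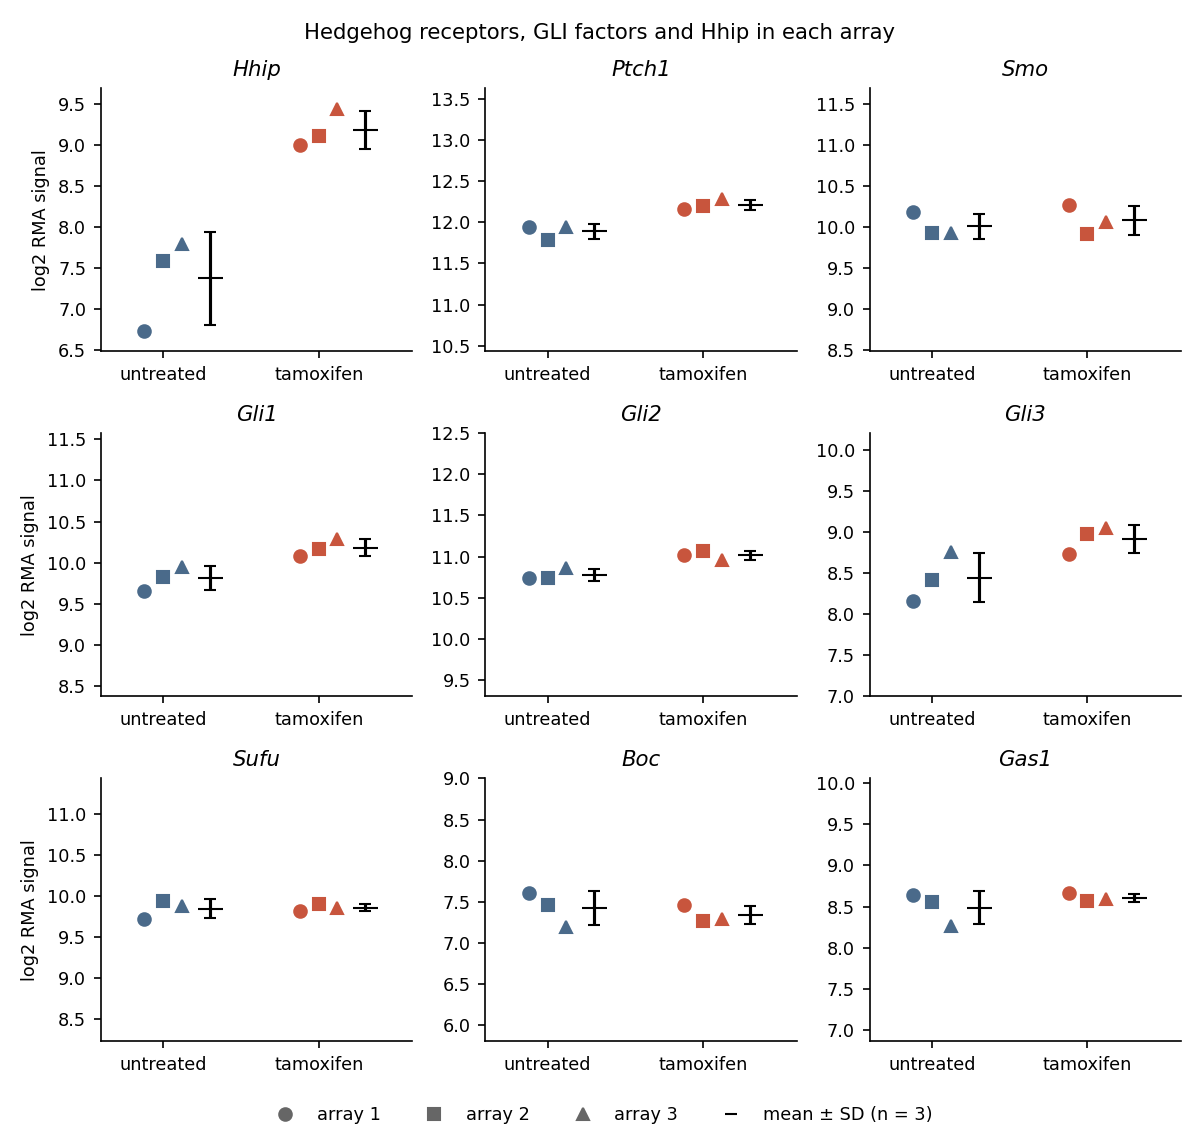
Log2 RMA signal of the 9 genes in each array, untreated in blue and tamoxifen in red, with a circle, square or triangle for replicate 1, 2 or 3 and the group mean ± SD (n = 3) beside the points. Every panel spans the same range of log2 units. Hhip has the widest gap, from 7.80 in the highest untreated array to 9.004 in the lowest tamoxifen array, and Gli3, Sufu, Smo, Boc and Gas1 overlap.

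Hhip encodes a membrane protein that binds hedgehog ligands and competes with Ptch1 for them. Its probe set, 10579894, had log2 signals of 6.74, 7.59 and 7.80 in untreated replicates 1, 2 and 3 and of 9.004, 9.11 and 9.44 in the tamoxifen replicates. The groups did not overlap, with 1.203 log2 units between the highest untreated and the lowest tamoxifen array. The untreated arrays (7.37 ± 0.56, SD, n = 3) were more scattered than the tamoxifen arrays (9.18 ± 0.23), with untreated replicate 1 well below the other 2. The difference of means was 1.81 ± 0.24 (SE) on the log2 scale, 3.51-fold with a 95% confidence interval of 2.39 to 5.14. Because Hhip was chosen for its rise, the interval takes no account of that choice and serves as a description only. Between arrays of the same number the difference was 2.26, 1.52 and 1.64. Without untreated replicate 1 the difference was 1.49, and without untreated replicate 3 it was 2.02; these were the extremes when any single array was dropped.

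Promoter windows from RefSeq (GRCm38.p6) were found for 7 of the 9 genes; each runs from 250 bases before to 50 bases after the annotated start. The windows of Hhip and Ptch1 are shown because these are the 2 ligand-binding inhibitors of the pathway and both had higher signal after tamoxifen. Capitals mark the cAMP response element TGACGTCA, the site of CREB-type factors, and the GC box GGGCGG or its reverse complement CCGCCC, the site of Sp1-type factors. The Hhip window lies at chr8:80057959-80058258 on the minus strand and that of Ptch1 at chr13:63565686-63565985 on the minus strand, each printed 5′ to 3′ along its gene.
Hhip: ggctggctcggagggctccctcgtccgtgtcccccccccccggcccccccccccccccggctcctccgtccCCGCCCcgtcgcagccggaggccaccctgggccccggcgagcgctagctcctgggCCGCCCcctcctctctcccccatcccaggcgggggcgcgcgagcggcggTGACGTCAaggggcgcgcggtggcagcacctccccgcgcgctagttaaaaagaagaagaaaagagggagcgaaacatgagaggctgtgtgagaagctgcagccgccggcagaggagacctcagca
Ptch1: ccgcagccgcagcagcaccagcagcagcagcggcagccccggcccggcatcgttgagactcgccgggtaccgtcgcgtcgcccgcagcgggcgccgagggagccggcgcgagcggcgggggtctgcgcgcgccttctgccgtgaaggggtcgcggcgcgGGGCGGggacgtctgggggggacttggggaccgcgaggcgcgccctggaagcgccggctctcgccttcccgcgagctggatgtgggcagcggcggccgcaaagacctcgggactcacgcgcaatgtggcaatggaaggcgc

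The Hhip window held 1 cAMP response element, 75 bases before the start, and 2 GC boxes. That element was noticed after the sequence was seen; it was in 1.79% of the 32851 promoter windows of the same length and in 1 of the 7 matched here. A GC box on either strand was in 6 of the 7 windows and in 35.7% of all. The GLI consensus GACCACCCA, searched on both strands, was in 0 of the 7 and in 0.253% of all windows. The matches did not overlap one another in either window shown, and the search says nothing of sequence outside the windows. All 7 windows were richer in G and C (56.3% to 76.3%) than the median window (52.7%).

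Ptch1, the receptor that keeps Smo inactive and whose transcription is a common readout of the pathway, rose after tamoxifen. Its probe set (10410039) read 11.94, 11.79 and 11.94 in untreated cells and 12.16, 12.20 and 12.28 in tamoxifen cells. Each tamoxifen array exceeded every untreated array, by at least 0.22, and the spread within groups was small (SD 0.09 and 0.06). The change was 0.32 ± 0.07 (SE) on the log2 scale, or 1.25-fold with an interval from 1.12 to 1.40, at a limma adjusted p of 0.0287. It was higher in 3 of 3 same-numbered pairs, by 0.22, 0.41 and 0.34. The call held in 2 of the 6 fits on 5 arrays. Dropping untreated replicate 2 gave an adjusted p of 0.0977 and dropping untreated replicate 3 gave 0.0513. For tamoxifen replicates 2 and 3 the values were 0.0976 and 0.105, while the change stayed between 0.27 and 0.35.

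The co-receptors Boc and Gas1 showed no change that could be told from the spread of the arrays. Boc, an immunoglobulin-type protein of the cell surface, read 7.61, 7.45 and 7.20 in untreated and 7.46, 7.27 and 7.29 in tamoxifen cells. Its groups overlapped, with a difference of -0.08 ± 0.11 (SE, 95% interval -0.32 to 0.16, adjusted p = 0.694). Gas1, which is held in the membrane by a lipid anchor, read 8.64, 8.56 and 8.26 against 8.66, 8.56 and 8.59. Only untreated replicate 3 stood apart, below the other 5 arrays, and without it the difference of 0.12 ± 0.10 (interval -0.10 to 0.34, adjusted p = 0.504) became 0.00. The upper bound for Gas1 lay above the change seen in Ptch1 and that for Boc below it; differences between genes were not tested.

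Smo and Sufu, which act between the receptor and the GLI factors, also overlapped between groups. Smo read 10.19, 9.93 and 9.92 in untreated and 10.26, 9.92 and 10.07 in tamoxifen cells, a difference of 0.07 ± 0.11 (interval -0.17 to 0.31, adjusted p = 0.726). In each group replicate 1 was the highest. Sufu read 9.72, 9.94 and 9.88 against 9.82, 9.90 and 9.85. Its difference was 0.01 ± 0.07 (SE), with an interval from -0.15 to 0.18 and an adjusted p of 0.944. Its upper bound lay below the changes estimated for Ptch1 and Gli1.

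Among the GLI factors, Gli1, an activator that is also a target of the pathway, rose. Its probe set (10373179) read 9.66, 9.83 and 9.95 in untreated and 10.09, 10.16 and 10.29 in tamoxifen cells. All tamoxifen arrays were above all untreated arrays, the nearest pair being 0.14 apart. The change was 0.37 ± 0.09 (SE), or 1.29-fold with an interval of 1.12 to 1.48, at an adjusted p of 0.0426. The 3 same-numbered pairs differed by 0.43, 0.33 and 0.34. The call held in 2 of the 6 fits on 5 arrays, in which the change ran from 0.29 to 0.44. Dropping untreated replicate 1 or 2 gave an adjusted p of 0.0811 or 0.112, and dropping tamoxifen replicate 2 or 3 gave 0.127 or 0.14. Centring each array on its median gave 0.0537.

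Gli2, the main activator at the start of a response, read 10.74, 10.74 and 10.86 in untreated and 11.02, 11.07 and 10.95 in tamoxifen cells. The groups did not overlap, though untreated replicate 3 and tamoxifen replicate 3 were only 0.09 apart. The difference was 0.23 ± 0.07 (SE) at an adjusted p of 0.0654, which missed the threshold. It passed with array weights (0.0361), cyclic loess (0.0354), renewed quantile normalisation (0.0431) and a prior with trend and robust estimation (0.0497). With the replicate block, 5 of 15 alternatives called it. Median centring did not (0.0799), and 0 of the 6 fits on 5 arrays did, with adjusted p-values from 0.0664 to 0.219.

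Gli3, the main repressor, read 8.16, 8.41 and 8.76 in untreated and 8.72, 8.97 and 9.04 in tamoxifen cells. Untreated replicate 3 lay just above tamoxifen replicate 1, so the groups overlapped. The difference was 0.47 ± 0.15 (interval 0.14 to 0.80) at an adjusted p of 0.0857. It was 0.63 without untreated replicate 3 (adjusted p = 0.0322) and 0.33 without untreated replicate 1 (0.158). With array weights the adjusted p was 0.0347.

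Arrays with the same number in the 2 groups deviated together, and this shows in the hedgehog genes. Replicate 1 was the lowest array of each group for Hhip, Gli1, Gli3 and Sufu, and the highest of each group for Smo, Boc and Gas1. With the replicate number as a block, 4 of the 8 genes apart from Hhip were called, all higher, where 7.87% of all genes were called higher and 9.54% lower. These were Gli3 (adjusted p = 0.00427), Gli1 (0.0048), Ptch1 (0.0111) and Gli2 (0.0455). Smo, Sufu, Boc and Gas1 remained above the threshold (0.458, 0.92, 0.481 and 0.329). The pairwise differences of Gli3 were 0.57, 0.56 and 0.28, and those of Gli2 were 0.28, 0.33 and 0.09.

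**Figure D2:**
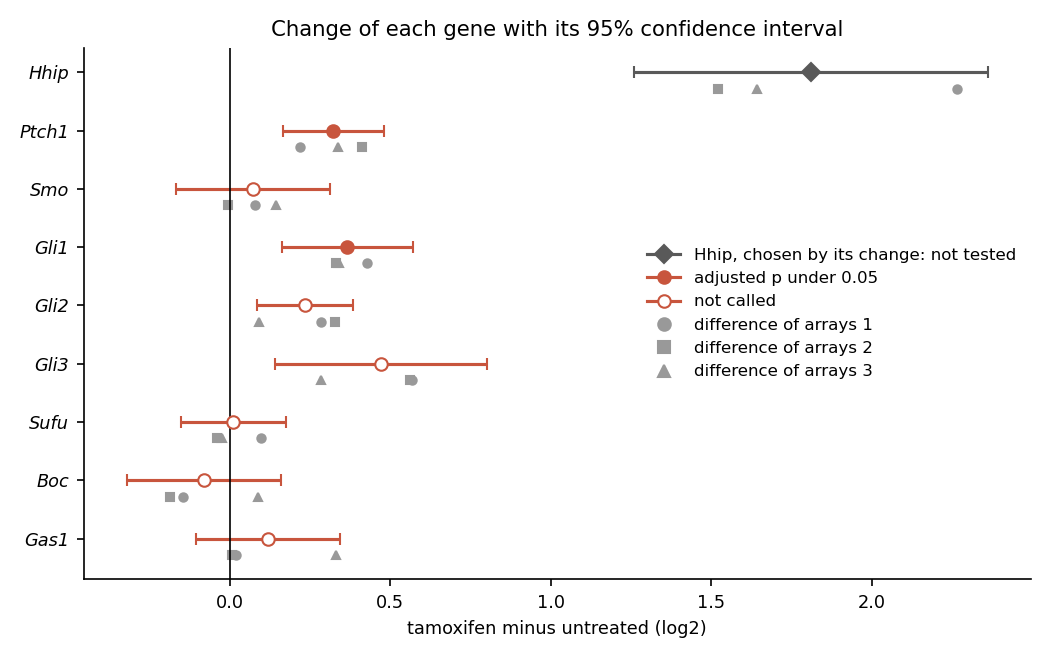
Difference between tamoxifen and untreated arrays for each gene on the log2 scale, with limma's 95% confidence interval and, in grey below it, the differences of the 3 same-numbered pairs of arrays. Filled circles were called and open circles were not. The diamond is Hhip, which was chosen for its rise and not tested, and its interval takes no account of that choice. Ptch1 at 0.32 and Gli1 at 0.37 are the called genes, and the intervals of Smo, Sufu, Boc and Gas1 include 0.

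Outside these genes, 73 of 78 listed genes of the pathway and its relatives were measured. In all 4 rose and 1 fell, 6.85% of them against 7.78% of all genes. By direction, 5.48% rose and 1.37% fell, beside 3.79% and 3.99% of all genes. The fit with replicate numbers as a block called 12 higher and 3 lower, beside 7.87% and 9.54% of all genes. An unadjusted limma p under 0.05 was reached by 15 of the 73 with a higher and 5 with a lower tamoxifen mean. Over all genes the shares were 11.5% and 13.1%, against which such counts are given for the lists. The median change of the 73 was 0.07. None of the ligands was called. Shh, Ihh and Dhh had differences of 0.12 ± 0.10, 0.19 ± 0.11 and 0.02 ± 0.08. At an unadjusted limma p under 0.05, or with the block, 0 of the 3 passed. Over the 6 arrays Shh read 6.48 to 6.88 and Dhh 6.14 to 6.37, below the median signal of every array. RMA compresses changes of dim probe sets.

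Of 5 genes that attach lipid to the ligand or release it, Scube3 rose and the other 4 were not called (list median 0.21). Scube3, a secreted protein of the family that carries the ligand away from the producing cell, read 8.76, 8.58 and 8.65 in untreated and 9.35, 9.21 and 9.30 in tamoxifen cells. The groups were widely separated for their spread, with a change of 0.63 ± 0.07 (SE), an adjusted p of 0.00354 and a call in 6 of 6 fits without 1 array. An unadjusted limma p under 0.05 was reached by 4 of the 5, all higher, beside 11.5% of all genes. With the block, 3 of the 5 rose, where 7.87% of all genes did. Besides Scube3 these were Scube2 (0.32 ± 0.11, block adjusted p = 0.00777) and Disp1, the transporter that releases the ligand (0.21 ± 0.06, 0.0472). Scube2 and Disp1 were named after their values were seen.

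Of the other ligand-binding proteins, Cdon, Lrp2 and Gpc3 were measured and 0 were called by limma, also at an unadjusted p under 0.05 and with the block. Gpc3, a glypican that competes with Ptch1 for the ligand, had the smallest p (0.13 ± 0.09, adjusted p = 0.409). Of 13 cilium-based transducers 0 were called by limma, and also 0 with the block; an unadjusted p under 0.05 was reached by 1 gene in each direction, and Ift88, which is needed for transport within the cilium, had -0.19 ± 0.07 (adjusted p = 0.107). Of 16 kinases and ubiquitin ligase components that act on GLI proteins 0 were called, while 2 reached an unadjusted p under 0.05, both lower, a share near the 13.1% of all genes. Csnk1e, a casein kinase, read 12.29, 12.06 and 12.02 against 11.93, 11.46 and 11.61, and was lower by 0.45 ± 0.12 with an adjusted p of 0.0582, or 0.00377 with the block. It also passed without the block when tamoxifen replicate 1 was left out (0.0153), with array weights (0.0293), with a trend and robust prior (0.0424), after median centring (0.0435) and without the dimmest 40% of genes (0.0492).

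Of 24 genes described as GLI targets in other tissues, 2 rose, 1 fell and 21 were not called, where 3.79% of all genes rose and 3.99% fell; with the block 7 rose and 2 fell, beside 7.87% and 9.54% of all genes. Ccnd1, the G1 cyclin, read 11.62, 11.78 and 11.62 in untreated and 12.03, 12.43 and 12.24 in tamoxifen cells (0.56 ± 0.10, adjusted p = 0.0158). Its groups did not overlap; the adjusted p was 0.0567 without tamoxifen replicate 2 and 0.0595 without tamoxifen replicate 3. Sfrp1, a secreted inhibitor of WNT signalling, read 12.31, 12.10 and 12.04 against 12.73, 12.48 and 12.46 (0.41 ± 0.10, adjusted p = 0.0389). Its call held in 1 of 6 fits without 1 array, that without untreated replicate 1, and the other adjusted p-values ran from 0.074 to 0.126. Bmp4, a ligand that hedgehog induces in gut mesenchyme, went the other way, from 11.31, 11.46 and 11.01 down to 10.69, 10.27 and 10.24 (-0.86 ± 0.14, adjusted p = 0.0122, or 0.0569 without tamoxifen replicate 2). An unadjusted limma p under 0.05 was reached by 8 of the 24 that were higher and 2 that were lower, beside 11.5% and 13.1% of all genes. The list median was 0.10. Ccnd2, another G1 cyclin, had the largest difference of the list without a call: it read 8.15, 8.57 and 8.16 against 8.52, 9.65 and 9.10 (0.80 ± 0.25, adjusted p = 0.0868, or 0.00415 with the block). The other genes that rose with the block alone were Nkx2-9 (0.47 ± 0.13, block adjusted p = 0.0133), Prdm1 (0.40 ± 0.13, 0.00603), Foxf1 (0.22 ± 0.06, 0.0388) and Foxl1 (0.21 ± 0.09, 0.0464), all of them developmental transcription factors, and Jag2, a Notch ligand, fell with it (-0.28 ± 0.08, 0.028). These and Ccnd2 were named after their values were seen.

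Relatives of the core genes were also followed. Of 7 measured genes of the GLI-related zinc-finger families Glis and Zic, Glis3 rose and 6 were not called. Glis3 read 7.61, 7.64 and 7.67 in untreated and 8.56, 8.56 and 8.51 in tamoxifen cells, tight within each group and far apart between them (0.91 ± 0.06, adjusted p = 0.000403), and was called in 6 of 6 fits without 1 array. With the block 2 of the 7 rose, the other being Glis2 (0.31 ± 0.09, block adjusted p = 0.0189), where 7.87% of all genes did. An unadjusted limma p under 0.05 was reached by 2, both higher, beside 11.5% of all genes. The Hhip-like genes Hhipl1 and Hhipl2 had differences of 0.10 ± 0.08 and 0.15 ± 0.08 (adjusted p = 0.508 and 0.319); 0 of the 2 were called at an unadjusted p under 0.05 or with the block.

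**Figure D3:**
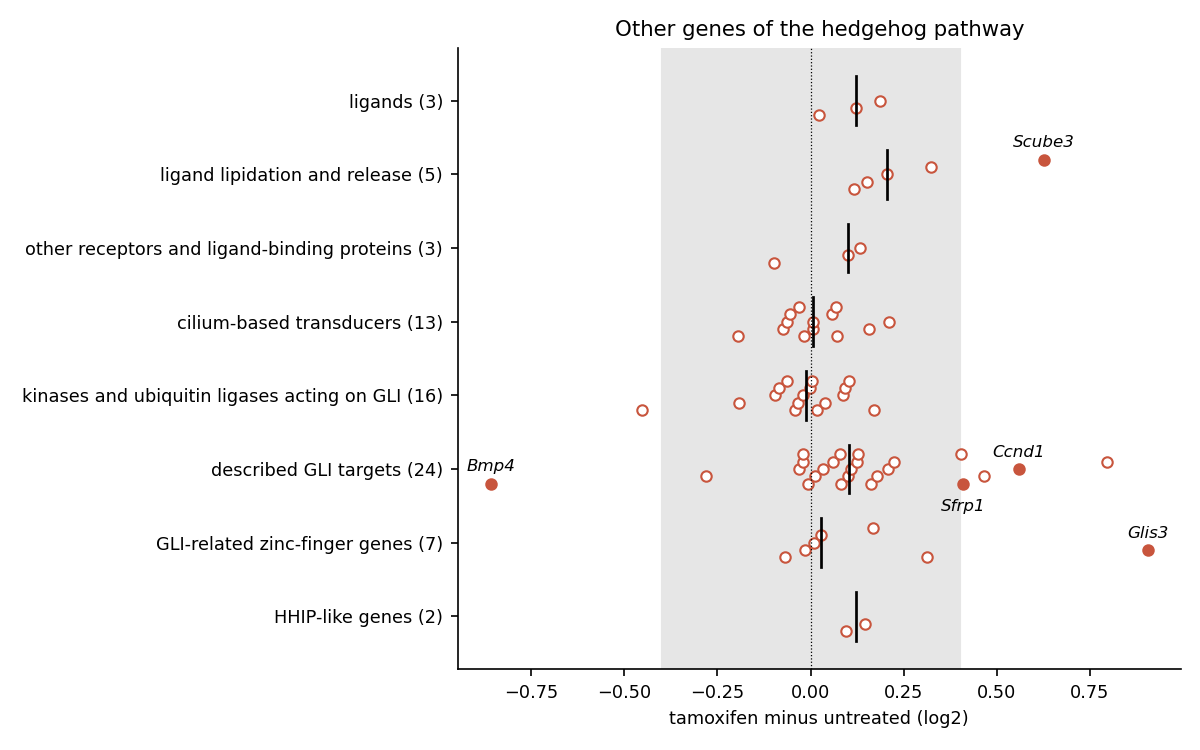
Difference between tamoxifen and untreated arrays (log2) for 73 other genes of the pathway and its relatives, by list, with the number measured in brackets. Filled points were called and are named, open points were not, the short black line is the list's median and the grey band holds 95% of all 19938 genes (-0.40 to 0.40). Scube3, Ccnd1 and Glis3 lie above the band, Sfrp1 at its upper edge and Bmp4 below it, and among the open points Ccnd2 and Nkx2-9 lie above it, Prdm1 at its upper edge and Csnk1e below it.

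No marker of another cell type was called. Of 31 measured markers of fibroblasts, primitive endoderm, early neural cells and trophoblast, 0 passed limma's adjusted threshold. An unadjusted p under 0.05 was reached by 5 that were higher and 4 that were lower, and the block called 5 in each direction; over all genes the shares were 11.5% and 13.1%, and 7.87% and 9.54% with the block. The mean log2 signal of 10 fibroblast markers, cells often used as feeders, was 6.62 to 6.77 in untreated and 6.72 to 6.80 in tamoxifen arrays; the ranges overlapped. That of 10 primitive endoderm markers was 7.66 to 7.84 and 7.71 to 7.77. That of 5 early neural markers was 7.29 to 7.52 and 7.46 to 7.65. That of 6 trophoblast markers was 7.75 to 7.93 and 7.68 to 7.96. Of the 10 embryonic stem cell markers 0 were called, 4 reached an unadjusted p under 0.05, all of them lower, and 3 fell with the block (Tdgf1, Utf1 and Fgf4, by 0.24, 0.26 and 0.32). RMA gives no detection call, so no marker could be said to be absent, and the part of any other cell type in the hedgehog changes was not tested.

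The genes whose 6 values were most like those of Hhip were Msln, Plagl1, Lefty1, Sulf1 and Bche. Likeness was the root-mean-square difference between log2 values centred on each gene's untreated mean, over 6 arrays and 19937 genes; it ran from 0.34 for Msln to 0.51 for Bche, where the median gene had 1.32. Since Hhip was chosen for its change, these values are a description. Msln, which encodes the surface protein mesothelin, read 7.64, 7.65 and 7.67 in untreated and 9.25, 9.62 and 9.51 in tamoxifen cells. It matched Hhip in the tamoxifen arrays but lacked the low untreated replicate 1. Plagl1, an imprinted zinc-finger gene, read 8.53, 9.09 and 9.29 against 9.92, 10.16 and 10.34. Like Hhip, it had its lowest value of each group in replicate 1. The same held for Lefty1, Sulf1 and Bche, and for Msln, whose untreated arrays were close together. Lefty1, an inhibitor of Nodal, read 10.94, 11.57 and 11.38 against 12.45, 12.64 and 12.47. Sulf1, which removes sulfate from heparan sulfate, read 9.05, 9.67 and 9.53 against 10.33, 10.80 and 10.67, and Bche, a cholinesterase, 6.05, 6.68 and 6.83 against 7.14, 7.80 and 8.05. Among the hedgehog genes Gli3 came nearest to Hhip, at 0.97, and Boc was farthest, at 1.42.

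**Figure D4:**
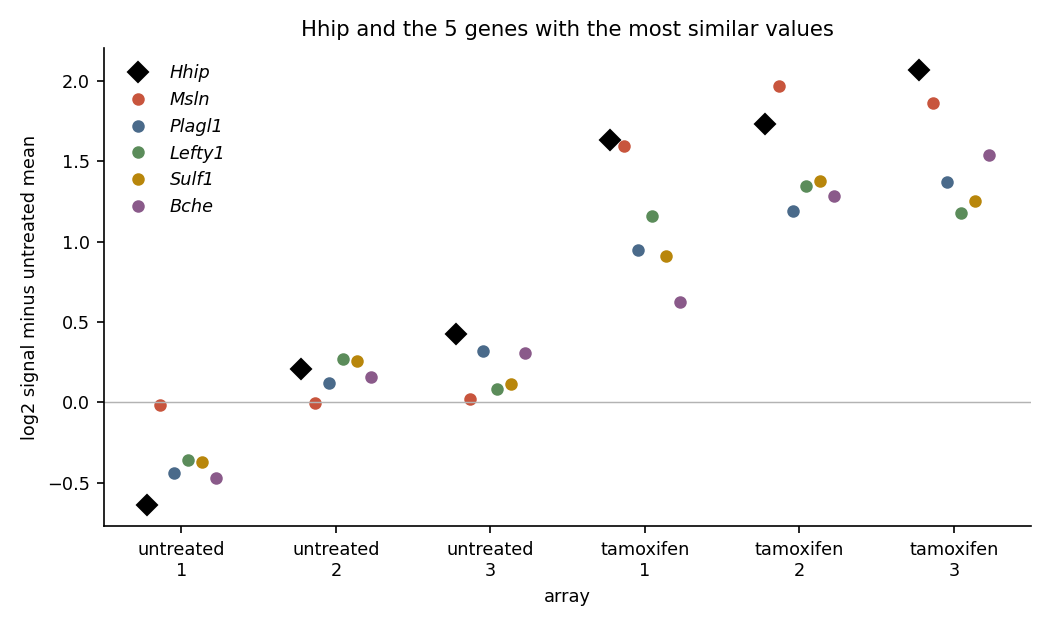
Log2 signal of Hhip (black diamonds) and of the 5 genes most like it in each of the 6 arrays, each centred on the mean of its untreated arrays; points are shifted sideways for legibility. In untreated replicate 1 all but Msln lie well below 0, and in the tamoxifen arrays Hhip and Msln lie highest.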

How the data were processed

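RNA from 3 untreated and 3 tamoxifen-treated samples was measured on Affymetrix arrays. The authors deposited log2 values; the submitters' processing notes name RMA and Affymetrix Expression Console 1.2, and the scale was inferred from the range of the values (3.18 to 14.6). RMA quantile-normalises the arrays, which hides a change shared by most transcripts, and compresses changes of dim probe sets. The genome build of the array annotation is not given in the sources used here.

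Of 35556 probe sets, 21789 had 1 gene symbol; the brightest per gene left 19938 genes, with no filter on dim genes. All 9 hedgehog genes also passed the alternative that left out the dimmest 40%. The two-sided comparison used lmFit and eBayes of limma 3.58.1 under R 4.3.3. The code was checked on simulated data. The number of arrays limits precision.

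Members, lists and alternatives were chosen with earlier results of these data known. Named genes are the members, Dicer1, up to 2 called genes per direction of each list (or that with the smallest p), and the 5 genes most like Hhip. Exceptions are said to be so, apart from the members of short lists and the markers. Same-numbered arrays deviated together across genes (correlations 0.356, 0.345 and 0.389). The replicate numbers were therefore used for the pairwise differences and as a block in an alternative fit. The main fit had no block, so its calls, SE and intervals take no account of this pairing.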

Additional observations from a re-analysis of the deposited data

How the results depend on the processing

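The count of called genes, 1552, was 3472 with the replicate block, 2511 with array weights and 276 at an adjusted p under 0.01, and ran from 355 to 1580 without 1 array. Of the 8 hedgehog genes apart from Hhip, 2 were called; 4 were with the replicate block, 4 with array weights, 1 after median centring and 0 at an adjusted p under 0.01, and 0 to 2 without 1 array. After cyclic loess, renewed quantile normalisation or a prior with trend and robust estimation the count was 3, Gli2 being the addition. Of 73 other pathway genes 5 were called, 15 with the replicate block, 11 with array weights, 8 without the dimmest 40% of genes, 2 at an adjusted p under 0.01, and 2 to 7 without 1 array. Hhip, chosen for its rise in these same arrays, was higher in 15 of 15 alternatives, by 1.49 to 2.02, which is a description only. Ptch1, Gli1, Gli2, Gli3 and Gas1 kept their direction in all 15 alternatives. For these genes, as for Hhip, some of the 15 could not alter the difference of means. Those were the replicate block, both other uses of probe sets, leaving out dim genes, and the trend and robust prior. Only the remaining alternatives could have changed a direction. Sign changed for Smo without tamoxifen replicate 1 (-0.0189, range over the 6 such fits -0.0189 to 0.159), for Sufu with array weights (-0.0219) and without 1 array (-0.0502 to 0.0589), and for Boc without 1 array (-0.191 to 0.0135). These 3 were not called in any fit. The cause of these changes was not tested. The replicate block changed no call of the other genes named from the lists by the rule except Csnk1e.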
